A study of Mus musculus with 2 samples.

Results

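The genes described here are 7 members of an epithelial splicing system: the RNA-binding splicing factors Esrp1, Esrp2 and Rbfox2, and the target genes Cd44, Ctnnd1, Enah and Arhgef11. They were taken by symbol, matched by Ensembl identifier, and make up 7 of the 43346 Ensembl genes and 80 of the 103639 Ensembl transcript models in the deposited tables. Total RNA was sequenced from the facial prominence of B6NCrl mouse embryos at embryonic day 14.5. The series is 1 group of 2 biological replicates, with labels that name 1 face from 1 embryo and its own collection day for each, although the sex entry of both names pooled males and females. No genotype, agent or treatment is named, so the levels describe a tissue, and the difference between the libraries is a difference between 2 samples with no test. Nothing in the labels separates epithelium from the rest of the face.

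ESRP proteins are made in epithelial cells and bind GU-rich RNA near alternative exons, which are then included or skipped. RBFOX proteins bind UGCAUG elements, in muscle, neurons and mesenchyme among other cells. Several genes of adhesion and of the actin cytoskeleton carry exons that follow these factors and differ between epithelial and mesenchymal cells. In mice, loss of Esrp1 leads to cleft lip and palate, which makes the forming face a tissue in which this programme is known to matter.

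The libraries held 30919488 expected counts in replicate 1 and 37738872 in replicate 2. Levels are in TPM, an abundance corrected for transcript length and library size, and intervals around them are the authors' credibility intervals, whose level is not given in the sources used here. Marker genes of several tissues were present. Of 23 epithelial markers, Esrp1 and Esrp2 among them, 22 reached 1 TPM in both libraries. All 15 mesenchymal markers did so, against 63.9% of all protein-coding genes. In such bulk tissue, fewer cells of a type and less RNA per cell cannot be told apart.

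All 7 genes reached 1 TPM in both libraries, where 63.9% of protein-coding genes did. Cd44 was highest at 41.8 ± 2.28 TPM (SD, n = 2 here and throughout), followed by Ctnnd1 at 39.0 ± 1.30 TPM and Rbfox2 at 36.3 ± 4.76 TPM. Enah averaged 19.9 ± 3.05 TPM and Esrp1 18.9 ± 2.23 TPM. Esrp2 averaged 13.7 ± 3.45 TPM and Arhgef11 13.2 ± 0.318 TPM. In this order each gene was above the next in both libraries, except that Esrp2 and Arhgef11 changed places between them. The ranges across the libraries overlapped for Ctnnd1 and Rbfox2, Enah and Esrp1, and Esrp2 and Arhgef11. The median of the 7 genes was 19.9 TPM, beside 17.3 TPM for coding genes that reached 1 TPM in both libraries.

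**Figure D1:**
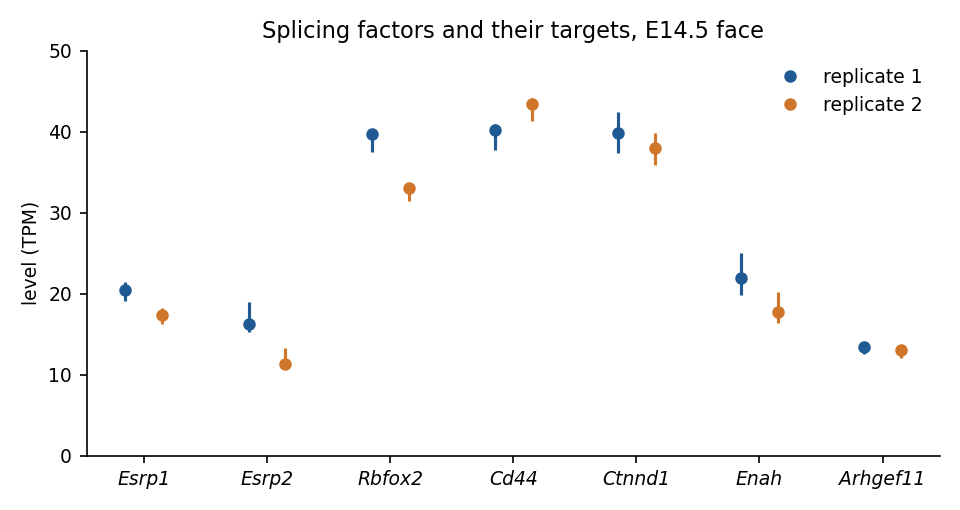
Level of each gene in TPM in replicate 1 (left of each pair) and replicate 2 (right), with the authors' credibility interval as a vertical line. Rbfox2, Cd44 and Ctnnd1 lie between 33.0 and 43.4 TPM, and the other 4 genes between 11.3 and 22.0 TPM.

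Esrp1, the main epithelial splicing regulator (ENSMUSG00000040728, chromosome 4, 11331933 to 11386783, minus strand, mm10), had 20.5 TPM in replicate 1 and 17.4 in replicate 2, from 1443 and 1576 expected counts. Its paralogue Esrp2 (ENSMUSG00000084128, chromosome 8, 106130319 to 106136974, minus strand) had 16.2 TPM in replicate 1 and 11.3 in replicate 2. Esrp1 was the higher of the pair in both embryos, by 1.27 times in replicate 1 and 1.54 times in replicate 2. Epithelial markers spread widely around this level, with the keratin Krt14 highest at 299 ± 1.56 TPM and the transcription factor Ovol2 lowest at 1.58 ± 0.933 TPM. Esrp1 reached 53.5% and 61.1% of the TPM of Cdh1, the epithelial cadherin, in replicates 1 and 2, and Esrp2 reached 42.2% and 39.7%. Against the adhesion gene Epcam the percentages were lower, at 28.5% and 31.3% for Esrp1 and at 22.5% and 20.3% for Esrp2.

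A set of 3 coding models made up most of Esrp1. Esrp1-204, with 14 exons, took 39.6% of the gene's TPM in replicate 1 and 45.0% in replicate 2. Esrp1-203, with 16 exons, took 31.1% and 29.0%, and Esrp1-201, with 15 exons, took 24.6% and 21.4%. These models differ toward the 3′ end of the coding sequence, where Esrp1-203 carries an exon of 151 bases and one of 110 bases, Esrp1-201 carries the 151-base exon alone, and Esrp1-204 joins past both. Of models that use the outer splice junctions, those with at least 1 of the exons made up 59.8% in replicate 1 and 53.8% in replicate 2. Where the 151-base exon was present, the 110-base exon was included in 55.9% and 57.6%.

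Esrp1-203 also uses a splice site 12 bases farther into the intron than the other models. Choice between these sites is known to change whether the Esrp1 protein is nuclear or cytoplasmic. The sequence below shows the end of the shorter exon in lower case and the added bases in capitals (chr4:11357460-11357489, minus strand, mm10).
Esrp1 exon end: gcttgtccccaccgccatGTAAGTTACCAT
The added bases begin with GTAAGT, which is the form of a splice donor, so the shorter exon ends at a donor that lies inside the longer one. Of models with either exon form, the longer form took 31.6% of TPM in replicate 1 and 29.8% in replicate 2. That share rests on the single model Esrp1-203. Esrp1-202 carries the same alternative 3′ exons without the 12 bases, with a coding sequence of 2031 bases against 2043. Esrp1-202 had 0 counts in both libraries, with intervals that reach up to 0.444 TPM in replicate 1 and 0.256 in replicate 2. Its last exon is 469 bases long where that of Esrp1-203 is 1436, so these models differ in more than the 12 bases. How far the annotated ends set the split between them was not tested.

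Esrp2 was carried mostly by 1 coding model. Esrp2-201, with 15 exons, took 82.4% of the TPM in each embryo. The 7 models of Esrp2 annotated as non-coding or with a retained intron held 14.4% of TPM in replicate 1 and 14.2% in replicate 2, but 2.78% and 3.57% of the counts. Short models give a high TPM from few reads. Esrp2 has no annotated cassette exon in the tables, where a cassette exon is one that some models include and others join past.

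Rbfox2 (ENSMUSG00000033565, chromosome 15, 77078990 to 77307004, minus strand) had 39.7 TPM in replicate 1 and 33.0 in replicate 2, and its replicate 1 value lay just above its own interval of 37.5 to 39.6. It was 1.94 times as high as Esrp1 in replicate 1 and 1.90 times in replicate 2. Its relatives were lower. Rbfox1, which muscle and brain use, had 5.87 TPM in replicate 1 and 6.05 in replicate 2, and the neuronal Rbfox3 had 2.76 and 2.58 TPM.

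Rbfox2 models differ at the first exon and near the 3′ end. Rbfox2-203 took 50.9% and 46.9% of TPM in replicates 1 and 2, Rbfox2-202 took 29.7% and 31.4%, and Rbfox2-201 took 18.2% and 15.4%. Rbfox2-204 had 1.23% in replicate 1 and 6.26% in replicate 2, or 0.490 and 2.06 TPM, and its interval of 0.0264 to 4.34 TPM in replicate 1 spans both values. Models that begin at the far upstream first exon, Rbfox2-201 and Rbfox2-204, together made up 19.4% in replicate 1 and 21.6% in replicate 2. The gene's one annotated cassette exon is 40 bases long, so that including it changes the reading frame of the protein's end (chr15:77094451-77094490, minus strand).
Rbfox2 40-base exon: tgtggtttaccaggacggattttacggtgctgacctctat
It was included in 52.1% in replicate 1 and 53.2% in replicate 2, an even split that hardly moved between the embryos. All 4 models contain the 93-base exon of the RNA-binding domain, so its skipping could not be measured. For 3 of the 4 models the length in the tables differs from that in the annotation used for exon structures.

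**Figure D2:**
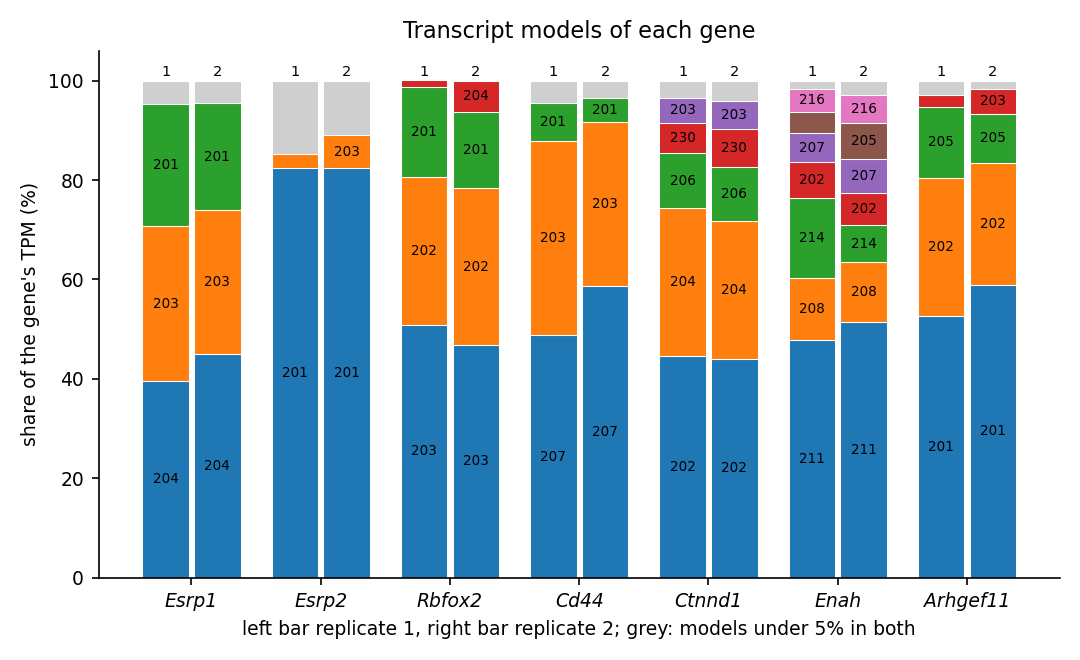
Share of each gene's TPM by transcript model, replicate 1 as the left bar and replicate 2 as the right one, with the number of each model of 5% or more in its segment and all smaller models in grey. The top model is the same in both embryos for all 7 genes, from 39.6% for Esrp1-204 to 82.4% for Esrp2-201 in replicate 1.

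Cd44, the receptor for hyaluronan (ENSMUSG00000005087, chromosome 2, 102811141 to 102901665, minus strand), had 40.2 TPM in replicate 1 and 43.4 in replicate 2. The standard form of Cd44 joins its constant exons directly, and variant forms insert up to 10 variable exons, numbered here v1 to v10 from 5′ to 3′ as in the longest model. ESRP proteins are known to promote variable exons in epithelial cells. Of the 8 models that span the variable region, those with any variable exon made up 60.0% of TPM in replicate 1 and 66.4% in replicate 2, and the standard model Cd44-203 the rest. By counts the variant share was 72.9% in replicate 1 and 77.9% in replicate 2.

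One variant model held most of that. Cd44-207, with v5, v6, v8, v9 and v10, had 19.6 TPM in replicate 1 and 25.5 in replicate 2, with intervals of 17.2 to 20.6 and 23.4 to 26.3 that do not overlap. Cd44-203, the standard form, had 15.7 and 14.3 TPM, with intervals of 13.3 to 17.1 and 12.2 to 15.8 that do. Cd44-201, with all 10 variable exons, had 3.07 TPM in replicate 1 and 2.07 in replicate 2. The higher Cd44 level of replicate 2 therefore lay in Cd44-207, whose share was 48.8% in replicate 1 and 58.7% in replicate 2. This was the widest gap of any of the 80 models, at 9.89 points, and 20.5% of all 8317 genes compared had a model at least 10 points apart.

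Along the variable region the exons formed 2 levels. These follow whole models, chiefly Cd44-207, so the exons are not separate measurements. Inclusion of v5, v6, v8, v9 and v10 lay between 59.5% and 60.0% in replicate 1 and between 65.3% and 66.4% in replicate 2. By contrast v1 to v4 and v7 lay between 7.84% and 9.86% in replicate 1 and between 4.85% and 5.49% in replicate 2. The sequences of v7, which most variant TPM lacks, and of the next exons v8 and v9, which it contains, are given here to set the skipped exon beside included ones (chr2:102837813-102837938, chr2:102834234-102834335 and chr2:102832483-102832572, minus strand).
Cd44 v7: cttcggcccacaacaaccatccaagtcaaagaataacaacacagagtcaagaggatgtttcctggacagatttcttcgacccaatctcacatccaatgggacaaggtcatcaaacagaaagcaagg
Cd44 v8: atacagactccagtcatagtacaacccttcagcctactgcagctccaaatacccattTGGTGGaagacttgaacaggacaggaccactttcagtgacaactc
Cd44 v9: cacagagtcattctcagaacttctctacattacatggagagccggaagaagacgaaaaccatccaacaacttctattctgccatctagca
Capitals in v8 mark TGGTG overlapping GGTGG, GU-rich forms that ESRP proteins are known to bind, and v7 and v9 hold neither. Inclusion of v8 and of v9 was 60.0% in replicate 1 and 65.4% in replicate 2. Every model with TPM that holds v9 also holds v8, so their equal inclusion is set by the models. The other variable exons, with v5, v6 and v10 at the included level, were not compared for these forms. The part of these forms in inclusion was not tested. GCATG, the core of the RBFOX element, is in none of the exons printed here. On the transcript strand, the only one searched, TGGTG occurs in 15.2%, GGTGG in 11.4% and GCATG in 8.36% of 59797 internal exons of 50 to 130 bases.

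**Figure D3:**
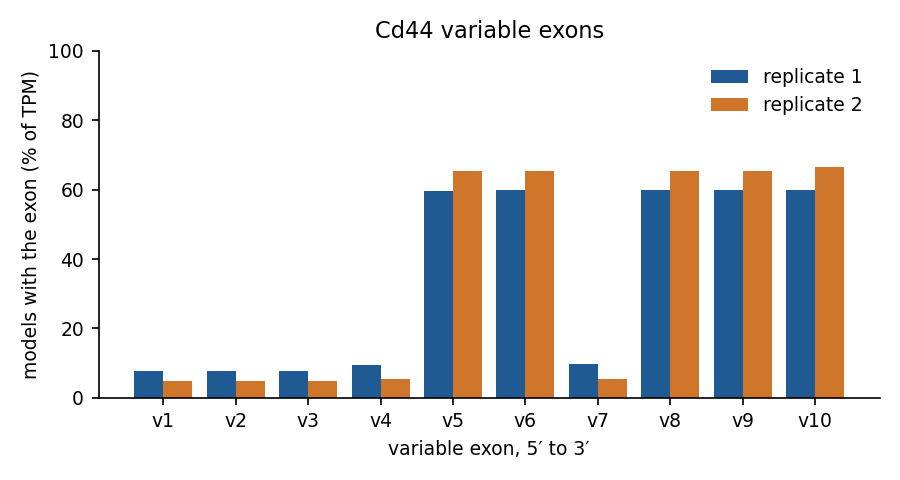
Percent of the TPM of models spanning the Cd44 variable region that contains each of the 10 variable exons, by embryo. The exons v5, v6 and v8 to v10 stand between 59.5% and 66.4%, and v1 to v4 and v7 at or below 9.86%.

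The Cd44 models also differ outside the variable exons. The last exon is 3197 bases long in Cd44-207 and Cd44-201 and 1791 bases in the standard Cd44-203, so reads from the longer 3′ end can be assigned to variant models alone. The model with v8, v9 and v10, the combination known as the epithelial form, is Cd44-205, whose last exon in the annotation is 218 bases, and it had 0 counts in replicate 1 and 2.20 in replicate 2. How far the annotated ends set the variant share was not tested.

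Ctnnd1 encodes p120-catenin, which holds cadherins at the cell surface (ENSMUSG00000034101, chromosome 2, 84600071 to 84650765, minus strand). It had 39.9 TPM in replicate 1 and 38.0 in replicate 2, spread over 30 models, of which 20 had 0 counts in both. Skipping of its early exons moves translation to a later start codon, and epithelial cells are known for the shorter proteins and mesenchymal cells for the full-length one. Models of the full-length protein made up 55.2% of coding TPM in replicate 1 and 57.1% in replicate 2. Those that start at codon 102 made up 32.9% and 30.9%, and the model that starts at codon 324 made up 11.9% in each embryo. Models that start at codon 55 had a TPM of 0 in both, and posterior shares of 5.32% and 4.36%. The 3 start codons in use, in capitals, with the coding bases that follow are at chr2:84624435-84624464, chr2:84620922-84620951 and chr2:84616901-84616930, minus strand.
Ctnnd1 codon 1: ATGgacgactcagaggtggagtcgaccgcc
Ctnnd1 codon 102: ATGcaggagccaggacagattgtggaaacc
Ctnnd1 codon 324: ATGattggtgaagaggtgccgcctgatcag

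Among its models Ctnnd1-202 (start at codon 1) took 44.7% of TPM in replicate 1 and 44.1% in replicate 2, and Ctnnd1-204 (start at codon 102) took 29.6% and 27.6%. The authors' posterior means were lower for both, at 34.7% and 36.4% for Ctnnd1-202 and at 20.3% and 21.6% for Ctnnd1-204. In replicate 1 the TPM of each lay above its own interval, at 17.8 against 10.6 to 17.2 for Ctnnd1-202 and at 11.8 against 5.49 to 10.6 for Ctnnd1-204. Of the 50 model values of 5% or more among the 7 genes, these 2 lay outside their intervals. Grouped by start codon, the posterior share of the full-length protein was 53.8% in replicate 1 and 54.4% in replicate 2, against 55.2% and 57.1%. That of codon 102 was lower, at 26.5% and 28.1% against 32.9% and 30.9%. Codon 324 had 13.5% and 12.4%, against 11.9% in each embryo.

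Farther along, the coding sequence of Ctnnd1 has 3 cassette exons, all multiples of 3 in length. Their sequences show the segments added to the protein's messenger RNA (chr2:84612532-84612549, chr2:84605184-84605246 and chr2:84603188-84603274, minus strand).
Ctnnd1 18-base exon: atgagtggttctccagag
Ctnnd1 63-base exon: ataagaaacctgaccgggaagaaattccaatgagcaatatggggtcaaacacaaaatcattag
Ctnnd1 87-base exon: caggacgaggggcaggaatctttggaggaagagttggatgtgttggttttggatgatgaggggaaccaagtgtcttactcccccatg
The 18-base exon, known as exon C, was included in 39.4% in replicate 1 and 39.6% in replicate 2. The 63-base exon A was included in 53.7% and 53.0%. Exon B, of 87 bases, was at 0.859% and 0.599%, from 35.9 and 30.8 counts, while posterior mean TPM put its average over both embryos at 4.19%. None of the 3 moved by more than 1 point between the embryos. Upstream of the first start codon, a 118-base exon was included in 10.1% in replicate 1 and 11.3% in replicate 2 of models that use the junctions on either side, Ctnnd1-203 against Ctnnd1-202 for those with TPM. Over all models that span it the average was 5.85%, against 10.7%.

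Enah, also called Mena, lengthens actin filaments (ENSMUSG00000022995, chromosome 1, 181896384 to 182019990, minus strand). It had 22.0 TPM in replicate 1 and 17.7 in replicate 2. Its best known alternative exon, called 11a, has 63 bases, is included in epithelial cells and is absent from mesenchymal ones. The exon of that length in the annotation lies at chr1:181911597-181911659, minus strand.
Enah 63-base exon: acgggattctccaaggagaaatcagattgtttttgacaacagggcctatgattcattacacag
It was included in 12.3% of the TPM in replicate 1 and 9.82% in replicate 2. The only model with it, Enah-202, had 1.61 TPM in replicate 1 and 1.13 in replicate 2, with intervals of 1.10 to 2.11 and 0.727 to 1.59. Models that skip it summed to 11.5 and 10.4 TPM. By counts the including model held 110 and 100 against 2390 and 2719 for the skipping models, whose main one, Enah-211, has a last exon of 9514 bases where Enah-202 has 1498.

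One Enah exon has a form of 111 bases, in 3 models, and one of 843 bases, in 4 models. Models with the long form made up 7.25% of TPM in replicate 1 and 10.9% in replicate 2, but 3.09% and 4.71% of the counts. Enah-211, with the short form and without the 63-base exon, was the top model at 47.9% and 51.5%. Models annotated with a retained intron held 40.5% of Enah TPM in replicate 1 and 35.0% in replicate 2 but 7.40% and 6.87% of its counts. The largest gap in share between embryos was that of one of these, Enah-214, of 739 bases, with 3.54 TPM in replicate 1 and 1.32 in replicate 2 from 44.6 and 21.5 counts. Its intervals, 0.938 to 5.61 and 0.000221 to 2.77 TPM, overlap.

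Arhgef11, an exchange factor that activates RhoA (ENSMUSG00000041977, chromosome 3, 87617559 to 87738034, plus strand), had 13.4 TPM in replicate 1 and 13.0 in replicate 2. Arhgef11-201 took 52.7% and 58.9% of TPM, Arhgef11-202 took 27.8% and 24.6%, and the nonsense-mediated decay model Arhgef11-205 took 14.2% and 9.76%. A 120-base exon was included in 69.3% in replicate 1 and 73.8% in replicate 2, and a 30-base exon in 34.5% and 29.5%. The exon for which Arhgef11 is known as an ESRP target lies near the 3′ end of the coding sequence. Of the 18 internal exons downstream of the last annotated skipped one, no model in the tables skips any, so that choice could not be measured.

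**Figure D4:**
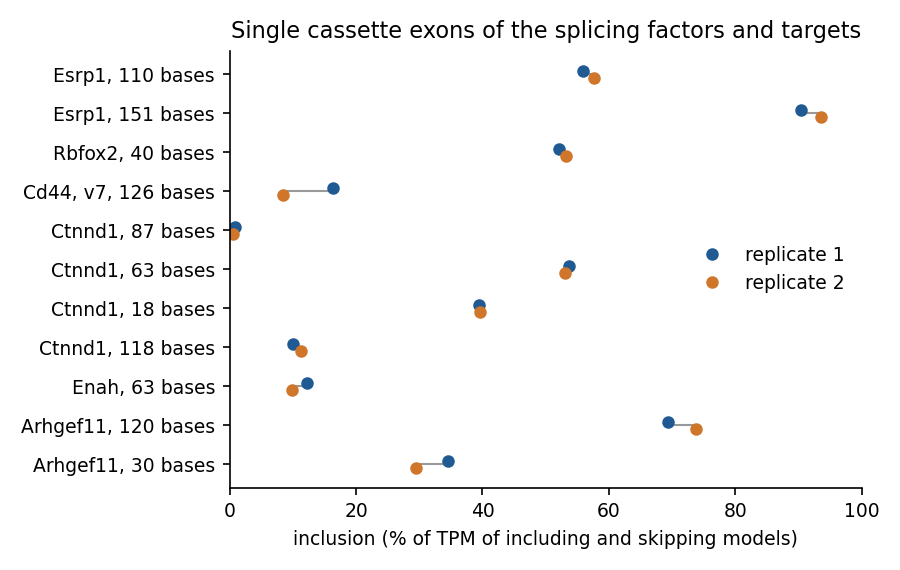
Inclusion of 11 single cassette exons in percent of the TPM of including plus skipping models, with replicate 1 drawn slightly above replicate 2. The 63-base exons of Ctnnd1 and Enah stand apart at 53.7% and 12.3% in replicate 1, and Cd44 v7, among models that use its neighbouring junctions, has the widest gap, at 16.4% and 8.41%.

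Taken over all 7 genes, 24 skip junctions had TPM in both libraries, a skip junction being 1 that some models use directly and others through exons in between. Inclusion was between 10% and 90% in both embryos for 12 of the 24, where 32.0% of the 8908 skip junctions of genes of 5 TPM or more were. Junctions of one gene share their models, so these are not 24 separate measurements. None of the 24 was 10 points or more apart between the embryos, against 11.6% of all. Each gene had the same top model in both embryos, as did 92.8% of all genes with 2 or more models. The median share of the top model was 49.7% over the 7 genes, beside 71.4% over all genes compared. The 7 genes have from 4 models (Rbfox2) to 30 (Ctnnd1), and the genes compared were not matched for number of models.

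Between the embryos no gene of the 7 was 2-fold apart, and 0.714% of 11482 genes were. Log2 ratios of TPM + 1, replicate 1 over replicate 2, are read against the median of all genes, 0.15. Esrp2 had the largest, at 0.48, with intervals of 15.3 to 19.0 TPM in replicate 1 and 10.8 to 13.3 TPM in replicate 2. The intervals of the embryos, on TPM without that median taken off, do not overlap for Esrp1, Esrp2, Rbfox2 and Cd44. How many of all genes share this was not counted, so it does not set these genes apart from others. Enah had 0.30, Rbfox2 0.26, Esrp1 0.23, Ctnnd1 0.07, Arhgef11 0.05 and Cd44 −0.11. Less that median, Ctnnd1 was at −0.08, Arhgef11 at −0.10 and Cd44 at −0.26. The other 4 genes were above it, with Esrp1 at 0.08, Rbfox2 at 0.11, Enah at 0.15 and Esrp2 at 0.33. The SD of the ratio over all genes of 5 TPM or more was 0.28. On counts scaled to the library total the ratio for Cd44 was 0.846, with an exact binomial interval of 0.808 to 0.886 for counting error only, and for Esrp2 it was 1.34 (1.22 to 1.47).

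Marker levels moved as well. The 21 epithelial markers other than the Esrp genes summed to 1174 TPM in replicate 1 and 1169 in replicate 2, while single markers went both ways, with Cdh1 at 38.3 and 28.4 TPM and Krt15 at 126 and 180 TPM. The 10 skeletal muscle markers summed to 6720 and 9029 TPM, the 15 mesenchymal ones to 10009 and 10543 TPM, the 8 neuronal ones to 335 and 285 TPM, the 8 leukocyte ones to 331 and 359 TPM, and the 6 vessel ones to 191 and 180 TPM. No marker of these lists had 0 TPM in both libraries, and their part in the differences of Esrp2 and Cd44 was not tested.

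**Figure D5:**
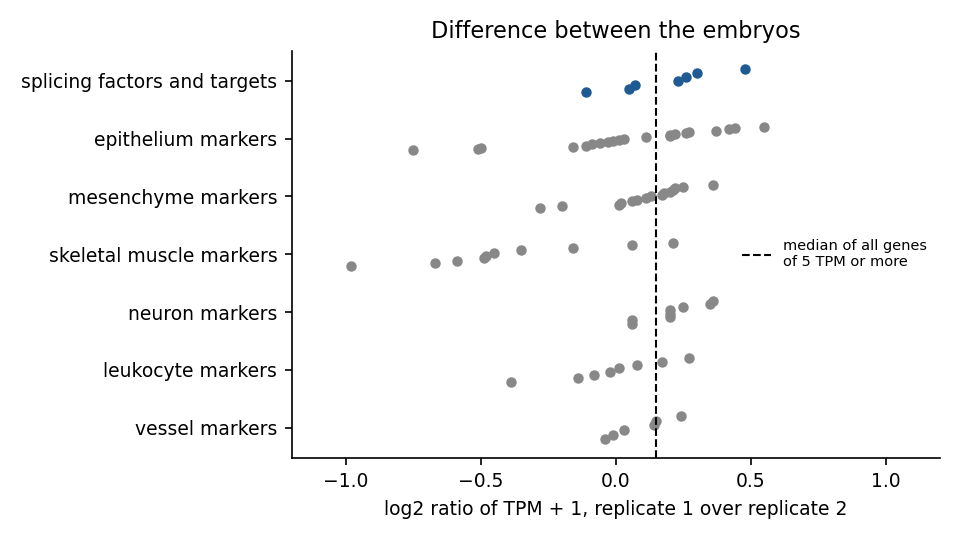
Log2 ratio of TPM + 1, replicate 1 over replicate 2, for the 7 splicing factors and targets and for marker genes of 6 tissues, 1 point per gene, with the median of all genes of 5 TPM or more at 0.15 as a dashed line. The 7 genes lie between −0.11 and 0.48, within the spread of the epithelial markers.

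Other splicing factors of the face gave the setting. Of 27 listed regulators of alternative splicing, the 3 factors above included, 25 reached 1 TPM in both libraries, where 63.9% of protein-coding genes did. The median of the 27 was 37.5 TPM. The general factors Srsf3 and Hnrnpf were highest, at 563 ± 54.3 and 476 ± 51.7 TPM, and the neuronal Nova2 was lowest at 0.875 ± 0.0778 TPM. Rbm47, another epithelial RNA-binding protein, had 5.20 TPM in replicate 1 and 7.57 in replicate 2. Of the 24 regulators outside the 7 genes none was 2-fold apart between the embryos, where 0.714% of genes of 5 TPM or more were.

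All 18 listed genes known for other ESRP-dependent exons reached 1 TPM in both libraries, where 63.9% of protein-coding genes did. Their median was 34.5 TPM. Rps24, a ribosomal protein, was highest at 981 ± 21.2 TPM, followed by the receptor Fgfr2 at 90.1 ± 11.3 TPM, and the scaffold Magi1 was lowest at 5.21 ± 0.658 TPM. Fgfr2 has an epithelial exon, IIIb, of 148 bases and a mesenchymal one, IIIc, of 145 bases. Of models with either, those with IIIb made up 45.3% of TPM in replicate 1 and 37.2% in replicate 2. By counts the IIIb share was 33.3% and 26.9%. In the same order of embryos, the 63-base exon of Enah was at 12.3% and 9.82%, where the intervals of its model overlap. Cd44 models with any variable exon went the other way, at 60.0% and 66.4%.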

How the data were processed

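Both libraries were made from 10.0 ng of total RNA, per the labels. Per the companion text, the deposited tables rest on mm10 and the GENCODE M4 gene set, one table of genes and one of transcripts for each library. No source used here gives the aligner or the quantifier version. Per the file headers, the authors estimated an expected count for each feature. TPM and FPKM are the authors' length-scaled values, per the file headers, and transcript percentages are their percent of a gene's TPM. Effective length is mostly 99 bases under the length.

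For exon structures and sequences GENCODE M21 was read, which uses that build too. It held all 80 member models, 77 of them at the same length, against 88.2% of all models. Inclusion was the TPM of including models as a percent of including plus skipping ones. It therefore follows whole models, not reads over the exon. No genome or protein sequence was used, so introns were not searched. The intervals do not cover transcripts missing from M4. Ratios were of log2(TPM + 1) values, where changes of low genes appear too small. With 2 samples no exact test can give p under 0.5 and no likeness of pattern across samples can be had, so none was made.

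Genes, lists and measures were chosen with earlier results of these data known, and the groups by start codon, first exon and exon form after the annotation was seen. Named genes are the 7, their models of 5% or more, and the 2 highest and the lowest of each list. Krt15, Rbm47, Rbfox1 and Rbfox3 were named after their values were seen. The inclusion script recovered 200 simulated events, which checks its arithmetic on model TPM set beforehand. No reads were simulated, so errors in assigning reads to models were not covered. Scaling factors on rounded expected counts came from edgeR 4.0.16 and DESeq2 1.42.0 under R 4.3.3. Other steps ran in Python 3.11.15 with scipy 1.17.1, pandas 2.3.3 and numpy 2.4.6, and matplotlib 3.10.9 drew the figures.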

Additional observations from a re-analysis of the deposited data

How the results depend on the processing

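The counts over the 7 genes kept within 1.5 times of the reported ones. All 7 genes reached 1 unit in FPKM and in posterior mean TPM, all 7 kept 1 top model in both embryos under posterior shares and among coding models alone, and none was 2-fold apart under TMM or DESeq2 factors, a pseudocount of 0.1 or FPKM. TMM factors moved the median log2 ratio of all genes to 0.00, against 0.15, with Ctnnd1 at −0.07 and Arhgef11 at −0.10, both below the median either way. Skip junctions between 10% and 90% numbered 11 to 17 under other measures, against 12, and 13 and 15 in single libraries. Single inclusion values moved past the spread between embryos for 11 of 24 junctions when all models over an exon were the base, 10 with expected counts, 9 with posterior mean TPM and 4 with coding models alone. The widest moves were over all models, to 87.9% against 0 at the Ctnnd1 junction past its early exons, and to 6.35% against 85.8% at the Cd44 junction around v1 to v3. Model shares moved for 8 of 28 with posterior values and for 10 of 20 among coding models. Of the 128 listed genes 125 reached 1 TPM in both libraries, 128 reached 0.5 TPM and 117 reached 5 TPM. No paired analysis was possible because there is 1 group. Depth limits rare models, several of which rest on under 50 counts.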

Other observations

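Partners of the target proteins were present throughout. All 20 listed genes reached 1 TPM in both libraries, where 63.9% of protein-coding genes did, with a median of 47.8 TPM. Ctnnb1 (beta-catenin) and Rhoa were highest, at 453 ± 50.6 and 264 ± 26.1 TPM, and the hyaluronan synthase Has2 was lowest at 1.98 ± 0.269 TPM. Among the cadherins that p120-catenin binds, the mesenchymal Cdh11 had 218 TPM in replicate 1 and 190 in replicate 2, Cdh2 had 43.1 and 37.0 TPM, Cdh1 had 38.3 and 28.4 TPM, the endothelial Cdh5 had 34.6 and 35.0 TPM, and Cdh3 had 13.7 and 8.17 TPM. The cadherins were named after their values were seen.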
